A study of Mus musculus with 6 samples.

Results

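The genes described here are the immediate early gene set of AP-1: Fos, Fosb, Fosl1, Fosl2, Jun, Junb, Jund, Atf3, Ier2 and Dusp1. They were chosen by symbol. A gene counted as measured where a row of the array table, a transcript cluster, was annotated to that gene alone, and of several rows the one with the highest mean was used. By this rule 9 of the 10 were measured, among 22180 genes in all. Fosl1 appeared only in a row annotated to both Ccdc85b and Fosl1, which is given apart from the 9 and cannot be assigned to either gene.

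Expression was measured in myeloid cells of mouse fetal liver with the Mouse Gene 2.0 ST array of Affymetrix, hybridised once for each sample. In the induced group, 3 samples (A, B and C) had been given doxycycline at 1000 ng/ml over 72 hours, a treatment that the labels equate with PU.1 expression. The uninduced group held 3 control samples, also lettered A, B and C, without doxycycline. All cells were grown in GM-CSF at 1 ng/ml, the engineered construct is not described, and no control received the drug alone, so effects of doxycycline and of PU.1 cannot be told apart.

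AP-1 is a dimer of basic leucine zipper (bZIP) proteins. Jun proteins can pair with each other or with Fos proteins, while Fos proteins need a Jun partner to bind DNA well. Growth factors, cytokines and stress act through MAP kinases, serum response factor and CREB to switch these genes on within minutes, before any new protein is made, and the transcripts are short-lived. In the myeloid lineage AP-1 proteins take part in the responses to growth factors and in monocyte and macrophage differentiation. Atf3 is a bZIP protein of stress responses, Ier2 is a nuclear protein of the same early wave, and Dusp1 is a phosphatase that switches MAP kinases off.

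No member passed the test between induced and uninduced cells. The test was limma over all 22180 genes, with a threshold of 0.05 on the Benjamini-Hochberg adjusted p. It called 0 of 9 members in either direction, against 1.42% of all genes (0.374% higher and 1.05% lower). Without adjustment, Dusp1 was the 1 member with p under 0.05, against 28.3% of all genes. The level of 7 of 9 members was lower in induced cells, against 44.0% of all genes, and their median log2 difference was -0.30, induced minus uninduced. Both depended on how the arrays were brought to a common scale: after quantile normalization 6 of 9 were lower (51.6% of all genes) with a median of -0.096, after cyclic loess 4 of 9 (51.6%) with a median of 0.0091, and after median centring 9 of 9 (61.1%) with a median of -0.44. Over the 8770 genes that were above the range of background on at least 3 arrays, as all 9 members were, the median difference was -0.31. Of the brighter 50% of all genes, which held all 9 members, 73.1% were lower in induced cells. Fosb, Jun, Junb, Atf3 and Dusp1 had their highest value on the B array of both groups, as did 8.01% of all genes; Fos, Fosl2, Jund and Ier2 did not.

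The following facts of the series bear on these values. The log2 values were used as deposited, and their interquartile range over all rows was between 2.17 on induced B and 2.62 on uninduced B, so the arrays did not share a common distribution. The range of background is taken as all values under the 95th percentile of 1394 olfactory and vomeronasal receptor genes on each array. Its upper bound was 7.39, 7.99 and 7.85 on induced A, B and C, against 7.37, 7.05 and 7.34 on uninduced A, B and C. Like values can thus be in the range on an induced array and above it on an uninduced one. Spi1, which encodes PU.1, was at 9.13, 9.04 and 9.05 in induced A, B and C, against 8.80, 8.65 and 8.84 in uninduced A, B and C (difference 0.31, SE 0.12, limma adjusted p = 0.152), and whether its row covers the engineered gene is not known. Of 12 myeloid markers 9 were above the range of background on all 6 arrays, while Ptprc and Csf1r were below it on all 6. None of 7 measured T and NK cell markers and none of 4 measured megakaryocyte markers rose above it. Neutrophil markers averaged 10.43 to 10.76 on the induced arrays and 9.72 to 9.79 on the uninduced arrays. Of these, 5 of 10 were called higher, and so were 3 of 9 macrophage markers, against 0.374% of all genes. Of the 9 macrophage markers, 5 were in the range of background on all 6 arrays, and Cd68 alone was above it on all 6. The part of these markers in the results below was not tested, and in such bulk RNA fewer cells of a type and less RNA per cell cannot be told apart. The labels do not tell whether each array came from a culture of its own, so the p-values speak of the spread among these 6 samples, which may be technical.

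The promoters of 4 members are shown: Fosb, Atf3 and Dusp1, which were highest on both B arrays, and Fos, which was lowest on both. Jun and Junb were also highest on both B arrays, and their promoters are not shown. Each sequence is the 250 bases just upstream of a RefSeq start of the gene in GRCm38.p6, 5′ to 3′ on the gene's own strand. Capitals mark every TGACG on either strand, the core of the cAMP response element through which CREB and other bZIP proteins bind. On the gene's own strand, the Fosb window ends within the span of the gene given below. That span reaches to 19310118, and the TGACG of Fosb lies inside it. Fosb lies on the minus strand at chr7:19310046-19310295, Atf3 on the minus strand at chr1:191183334-191183583, Dusp1 on the minus strand at chr17:26508473-26508722 and Fos on the plus strand at chr12:85473640-85473889.
Fosb: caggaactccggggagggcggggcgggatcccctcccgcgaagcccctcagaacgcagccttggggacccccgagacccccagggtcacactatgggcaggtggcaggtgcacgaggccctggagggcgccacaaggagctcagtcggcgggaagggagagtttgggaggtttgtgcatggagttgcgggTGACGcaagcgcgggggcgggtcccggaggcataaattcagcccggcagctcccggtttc
Atf3: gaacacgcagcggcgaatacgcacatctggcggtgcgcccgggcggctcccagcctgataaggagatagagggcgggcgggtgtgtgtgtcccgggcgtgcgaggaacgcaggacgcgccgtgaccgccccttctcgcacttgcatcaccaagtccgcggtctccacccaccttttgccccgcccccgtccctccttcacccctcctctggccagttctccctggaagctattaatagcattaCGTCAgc
Dusp1: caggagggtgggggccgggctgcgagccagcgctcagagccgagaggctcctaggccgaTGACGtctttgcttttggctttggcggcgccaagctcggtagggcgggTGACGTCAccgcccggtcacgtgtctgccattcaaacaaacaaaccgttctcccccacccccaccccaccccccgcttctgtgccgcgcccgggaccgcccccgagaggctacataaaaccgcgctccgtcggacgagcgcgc
Fos: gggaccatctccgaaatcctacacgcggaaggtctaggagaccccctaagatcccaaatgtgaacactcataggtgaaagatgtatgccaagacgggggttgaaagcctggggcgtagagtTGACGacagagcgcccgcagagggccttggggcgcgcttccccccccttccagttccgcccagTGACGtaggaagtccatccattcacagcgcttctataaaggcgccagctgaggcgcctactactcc

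The RefSeq table held promoters of 8 members. Both strands were searched, and 5 of the 8 (Fos, Fosb, Junb, Atf3 and Dusp1) held TGACG, against 17.8% of all 32851 windows of this length. Jun, also highest on both B arrays, held 0, as did Fosl2 and Jund. The full palindrome TGACGTCA was found in Dusp1, where it starts 143 bases before the gene and overlaps 2 of its 3 TGACG matches, against 1.55% of all windows. The pattern TGANTCA, in which N is any base and which is wider than the AP-1 element it takes in, was in 0 of the 8 windows and in 6.75% of all. The TATA box TATAAA was in 1, that of Fos 33 bases before the start, and in 12.4% of all. These matches describe letters only.

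Fos encodes the partner whose rapid and brief rise defined the immediate early response (chromosome 12, 85473890 to 85477274 in mm10, as for the coordinates below). Its log2 value was 10.51, 10.04 and 10.22 in induced A, B and C, against 10.65, 10.22 and 10.81 in uninduced A, B and C. The groups overlapped, and B was the lowest array of each. Induced minus uninduced, this came to -0.30 (SE 0.18, limma adjusted p = 0.260), a fold of 0.810 with a 95% interval of 0.613 to 1.07. It was -0.11 after quantile normalization and -0.0065 after cyclic loess.

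Fosb (chromosome 7, 19302696 to 19310118), a Fos family member induced with similar speed, varied more among the arrays of a group than any other measured member in induced cells. It was at 10.22, 12.16 and 10.22 in induced A, B and C, against 11.003, 11.91 and 11.12 in uninduced A, B and C. Both B arrays stood above all the others, and induced A and C stood below all the uninduced arrays. With all arrays the difference was -0.48 (SE 0.45, limma adjusted p = 0.447). Without both B arrays, a setting chosen after the data were seen, it was -0.84 (SE 0.15, limma adjusted p = 0.0457). Leaving out induced B alone gave -1.12, past no threshold (limma adjusted p = 0.103), and leaving out induced A, induced C or uninduced B gave -0.16, -0.15 and -0.19.

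Fosl2 encodes Fra-2, a Fos-related subunit without a strong activation domain (chromosome 5, 32136472 to 32157840). It was at 9.18, 9.58 and 9.19 in induced A, B and C, against 9.51, 9.43 and 9.42 in uninduced A, B and C. Induced B was the highest of all 6 arrays and induced A and C the lowest, so the groups overlapped. The difference was -0.14 (SE 0.14, limma adjusted p = 0.496), and it turned to 0.18 after cyclic loess and 0.095 after quantile normalization.

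The row annotated to both Ccdc85b and Fosl1, the second of which encodes Fra-1, had the widest gap between the groups of any row that holds a member's symbol. It was at 7.15, 9.19 and 7.35 in induced A, B and C, against 9.09, 9.96 and 9.24 in uninduced A, B and C. Induced B lay within the uninduced values, and induced A and C were in the range of background. Over all 41345 rows the difference was -1.53 (SE 0.51, limma adjusted p = 0.217). Without both B arrays it was -1.91 (SE 0.16, limma adjusted p = 0.0723). Which of the 2 genes this row measured cannot be told apart.

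**Figure D1:**
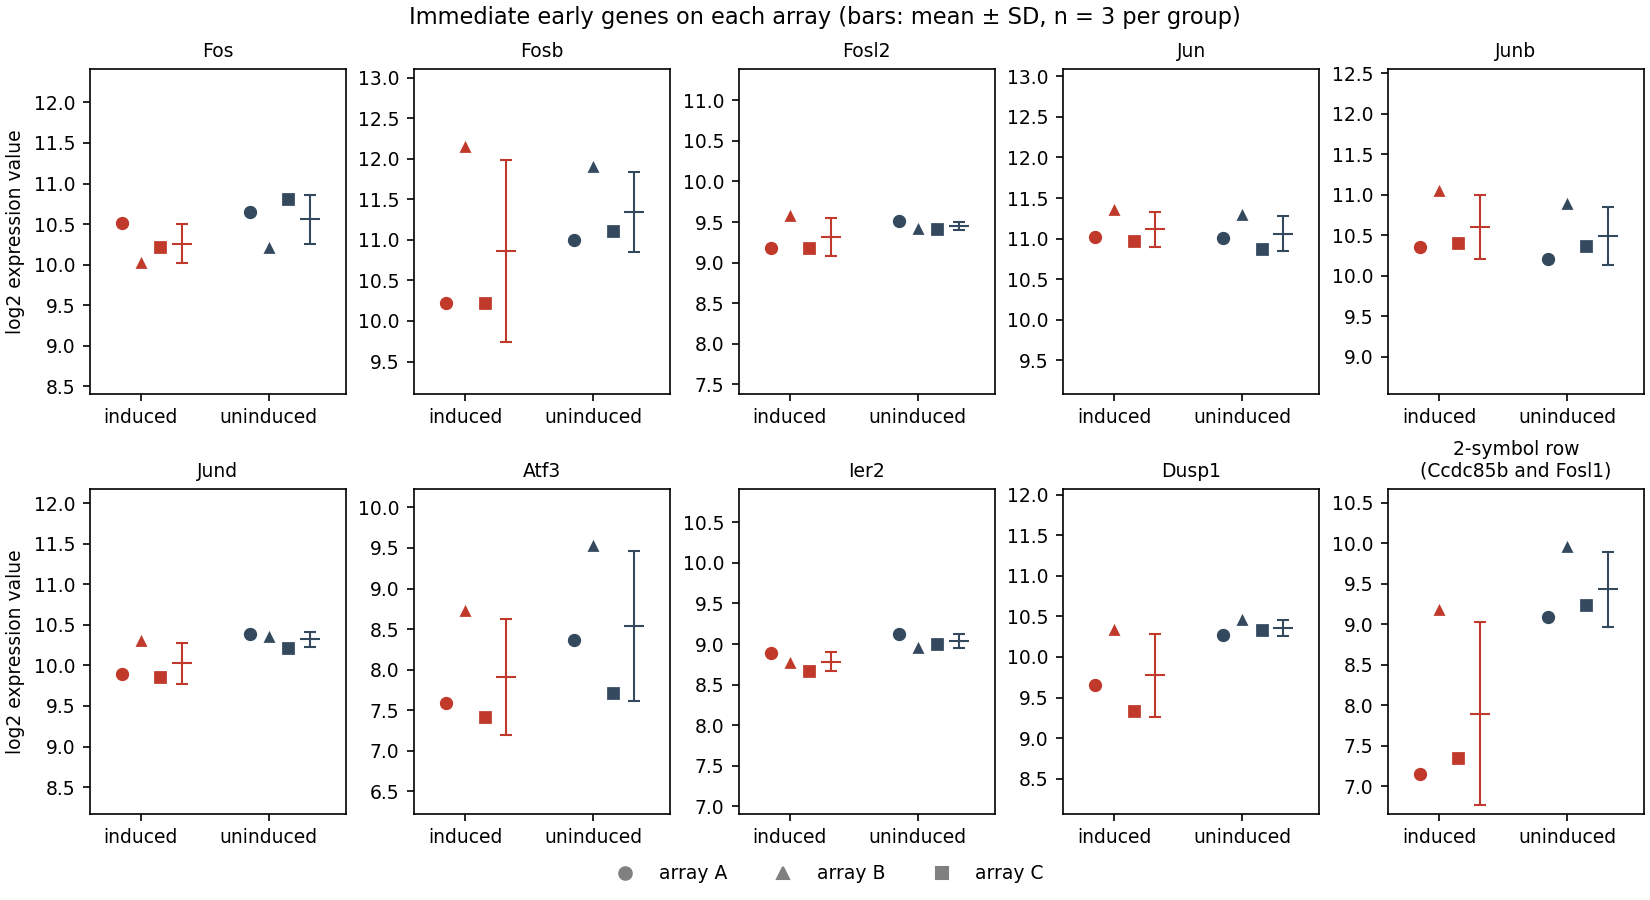
Log2 expression value (y axis, a span of equal height in every panel) of each measured gene and of the row annotated to both Ccdc85b and Fosl1 on the 3 induced and the 3 uninduced arrays; circles, triangles and squares are arrays A, B and C, and bars are the mean ± SD (n = 3). The triangles stand highest in both groups for Fosb, Jun, Junb, Atf3 and Dusp1 and for the row with both symbols, and lowest for Fos.

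Jun (chromosome 4, 95049036 to 95052222), the subunit that can form AP-1 with itself, was at 11.02, 11.36 and 10.97 in induced A, B and C, against 11.01, 11.30 and 10.87 in uninduced A, B and C. The order of the arrays, B above A above C, was the same in each group. The difference was 0.052 (SE 0.16, limma adjusted p = 0.821), with a 95% interval of 0.810-fold to 1.33-fold. It was -0.089 after median centring, which moved the median of all genes by -0.14, and relative to that median Jun was at -0.0060.

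Junb (chromosome 8, 84976909 to 84978748), a Jun protein that often restrains the growth-promoting action of Jun, was at 10.35, 11.06 and 10.40 in induced A, B and C, against 10.21, 10.90 and 10.37 in uninduced A, B and C. Both B arrays were again the highest, by 0.68 over the mean of the other 2 in induced cells and by 0.61 in uninduced cells. The difference between the groups was 0.11 (SE 0.22, limma adjusted p = 0.717), or 0.055 relative to the median of all genes.

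Jund, the Jun protein that is usually present before stimulation (chromosome 8, 70697739 to 70700616), was at 9.90, 10.31 and 9.86 in induced A, B and C, against 10.38, 10.36 and 10.22 in uninduced A, B and C. Induced A and C were lower than every uninduced array, and induced B was within them. The difference was -0.30 (SE 0.15, limma adjusted p = 0.210), and 0.0091 after cyclic loess. A second row of Jund, with a mean of 7.41 ± 0.089 in induced cells and 7.44 ± 0.031 in uninduced cells (SD, n = 3 each), differed by -0.033 (SE 0.12, limma adjusted p = 0.863 over all rows). That row cleared the background range on 1 induced array and on all 3 uninduced ones. Its values were alike, at 7.49, 7.43 and 7.31 in induced A, B and C, against 7.41, 7.47 and 7.43 in the uninduced arrays. The upper bound of the background range was higher on every induced array than on any uninduced one.

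Atf3 (chromosome 1, 191170296 to 191183333), a stress-induced bZIP protein that acts largely as a repressor, had the lowest estimate of the 9. It was at 7.59, 8.73 and 7.41 in induced A, B and C, against 8.36, 9.53 and 7.71 in uninduced A, B and C. Induced C was in the range of background. B was the highest array of each group, by 1.23 over the mean of A and C in induced cells and by 1.495 in uninduced cells. Between the groups Atf3 differed by -0.62 (SE 0.43, limma adjusted p = 0.317), a fold of 0.649 with an interval of 0.334 to 1.26. It ran from -1.04 without uninduced C or without induced B to -0.13 without uninduced B, with no call among these.

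Ier2 (chromosome 8, 84661331 to 84662852) was the one measured member whose groups did not overlap. It was at 8.90, 8.78 and 8.67 in induced A, B and C, against 9.13, 8.97 and 9.003 in uninduced A, B and C. The B arrays did not stand out. Groups lay apart in this direction for 15.4% of all genes, and in the other for 16.0%, so 1 of 9 members is near the background. The difference was -0.25 (SE 0.13, limma adjusted p = 0.212), and 0.038 after cyclic loess.

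Dusp1 encodes the nuclear phosphatase MKP-1, which inactivates p38, JNK and ERK (chromosome 17, 26505591 to 26508472). It had the smallest unadjusted p of the 9 members (limma unadjusted p = 0.0235, adjusted p = 0.141). It was at 9.65, 10.34 and 9.34 in induced A, B and C, against 10.28, 10.47 and 10.33 in uninduced A, B and C. The 3 uninduced arrays lay within 0.19 of each other and the 3 induced arrays within 1.00, with induced B inside the uninduced range. The difference was -0.58 (SE 0.22), or 0.668-fold with a 95% interval of 0.476 to 0.936. It passed the threshold without induced B, at -0.86 (limma adjusted p = 0.0498), and not without both B arrays, at -0.81 (limma adjusted p = 0.0841). Without induced C it was -0.36.

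Over the 6 arrays, the genes most like Dusp1 by Pearson correlation were Mt2 (r = 0.989), Apoe (r = 0.983) and Plek (r = 0.982), of 8761 genes compared. Mt2, a metallothionein, was at 10.47, 10.94 and 10.33 in induced A, B and C, against 11.02, 11.07 and 10.998 in uninduced A, B and C. Plek, which encodes the kinase substrate pleckstrin, was at 9.90, 10.66 and 9.52 in the induced arrays, against 10.45, 10.84 and 10.44 in the uninduced ones. The values of Apoe, a lipid carrier, ran only from 7.55 to 7.69, so its likeness is one of shape over a narrow range. With 6 arrays the correlation is a description.

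**Figure D2:**
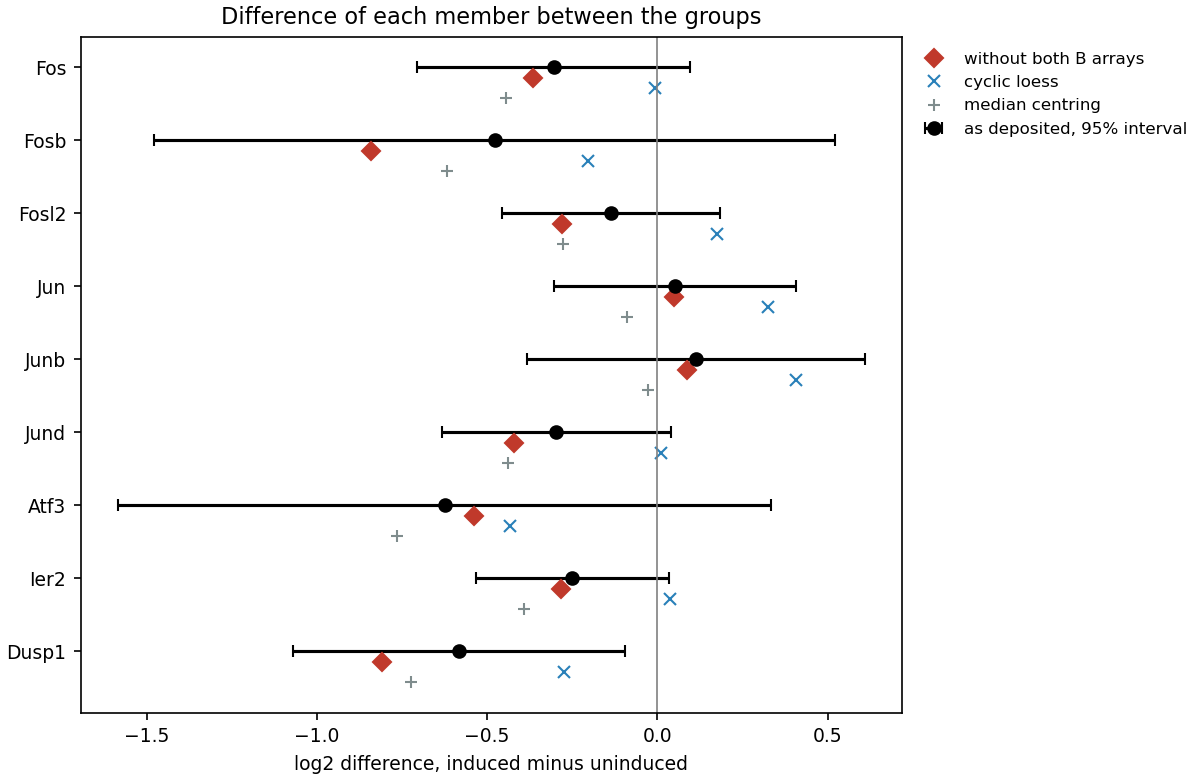
Log2 difference, induced minus uninduced (x axis), of each measured member; black circles are the deposited values with the 95% interval of the limma fit, diamonds leave out both B arrays, crosses follow cyclic loess and plus signs follow median centring. The interval of Dusp1 alone lies wholly below 0, and after cyclic loess Fosl2, Jun, Junb, Jund and Ier2 lie above 0.

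Array weights, which give less weight to the more variable arrays, put Fos at -0.53 (limma adjusted p = 0.00303), Jund at -0.33 (limma adjusted p = 0.0202), Ier2 at -0.32 (limma adjusted p = 0.0104) and Dusp1 at -0.84 (limma adjusted p = 0.00182). With these weights the calls over all genes numbered 5825 higher and 5681 lower, and the weights were 3.46 for induced C and 4.60 for uninduced C against 0.309 to 0.932 for the other arrays. These 4 calls therefore rest mainly on the C arrays.

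Between the B array and the other 2 arrays of its group, several members differed by more than they did between the groups. Fosb was higher on B than the mean of A and C by 1.94 in induced cells and by 0.85 in uninduced cells. Jun was higher on B by 0.37 in induced and 0.36 in uninduced cells, and Dusp1 by 0.84 in induced and 0.17 in uninduced cells. Fos went the other way, at -0.33 in induced and -0.51 in uninduced cells. Over all 22180 genes the median of this gap was 0.0096 in induced and -0.0021 in uninduced cells. Among the 8770 genes above the range of background on at least 3 arrays it was -0.16 in induced cells and 0.22 in uninduced cells. Such bright genes thus tended to be low on induced B and high on uninduced B. In uninduced cells Fosb, Jun, Junb and Atf3 stood above that median. Dusp1 stood below it, and its gap there was -0.062 after cyclic loess.

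The count of members highest on both B arrays was 5 of 9 as deposited and after quantile normalization, 7 after median centring and 4 after cyclic loess. The same count over all genes was 8.01%, 9.81%, 8.40% and 10.9%. Fosb, Jun, Junb and Atf3 were in it under all 4 scalings, and Dusp1 under the first 3. By comparison, 1 of 9 members was highest on both A arrays and 0 on both C arrays, against 5.19% and 9.55% of all genes. This pattern was noticed in these values, and what the B samples shared was not tested; the letter may or may not mark a common culture, day or handling. No label says that it does. Over all rows the deviations of the B arrays from their group means correlated at -0.15, a value that cannot speak for a smaller set of genes.

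**Figure D3:**
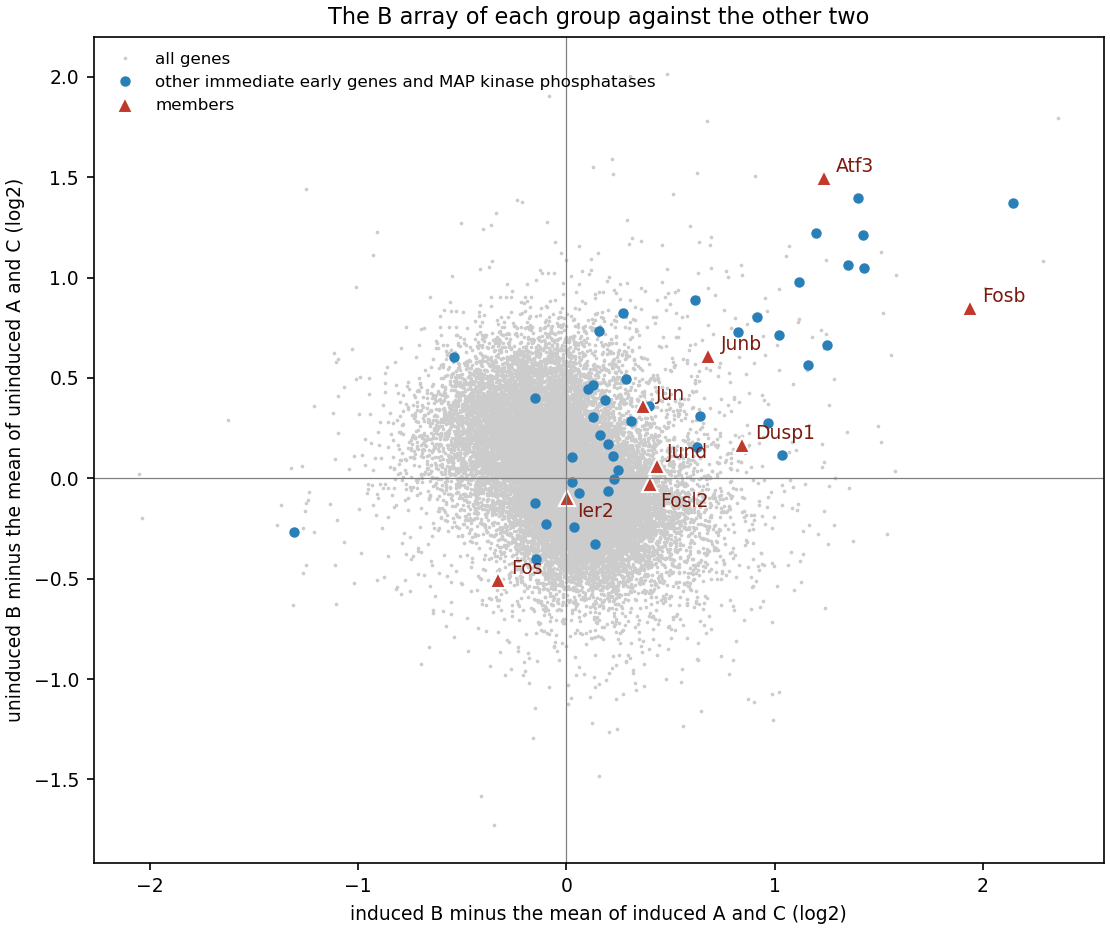
Log2 gap between the B array and the mean of arrays A and C, in induced cells (x axis) and in uninduced cells (y axis), for all 22180 genes in grey, for the lists of other immediate early genes and MAP kinase phosphatases in blue and for the 9 measured members as red triangles. Atf3 and Fosb lie far to the upper right, at 1.23 and 1.495 and at 1.94 and 0.85, and Fos lies at the lower left.

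The other immediate early genes, a list of 33 that were all measured, had 0 genes past the test in either direction (limma; without adjustment, 1 higher and 2 lower at p under 0.05), and a median difference of -0.13 against 0.058 over all genes. For this list and those below, the unadjusted counts over all 22180 genes were 2538 higher and 3743 lower. As many as 19 of the 33 (57.6%) were highest on both B arrays, and 17 to 19 under the 4 scalings. The 2 brightest members of the list were Klf6, a Krüppel-like transcription factor, and Ier3, a regulator of survival under stress. Klf6 was at 10.81, 11.85 and 10.39 in induced A, B and C, against 11.39, 11.90 and 11.07 in uninduced A, B and C (difference -0.44, SE 0.33, limma adjusted p = 0.349). Ier3 was at 10.37, 11.40 and 10.36 in the induced arrays, against 11.13, 11.19 and 11.01 in the uninduced ones (difference -0.40, SE 0.25, limma adjusted p = 0.271). The kinase gene Plk3, picked after its values were seen, had the widest gap of the list between B and the other arrays in induced cells, though not in uninduced cells, at 7.35, 9.46 and 7.29 in induced cells, against 8.27, 9.44 and 7.87 in uninduced cells. Egr1, the zinc finger factor often induced along with Fos, was also picked after its values were seen. It was at 8.50, 9.55 and 8.65 in the induced arrays and at 9.17, 9.43 and 9.14 in the uninduced ones. Egr2, the 1 gene higher without adjustment, had the smallest limma p of the list. It was at 8.24, 8.28 and 7.92 in the induced arrays, against 7.46, 7.61 and 7.42 in the uninduced ones. Its groups did not overlap, and the difference was 0.65 (SE 0.14, limma adjusted p = 0.0555). Gadd45b, a stress-induced regulator of p38 signalling, and the antiproliferative gene Btg2 were instead lower on both B arrays than the mean of A and C.

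Of the 10 other MAP kinase phosphatases, the family of Dusp1, 0 passed the test in either direction (limma; without adjustment, 1 lower at p under 0.05) and the median difference was -0.19. The B array of both groups was the highest for 6 of 10 under all 4 scalings (Dusp2, Dusp5, Dusp6, Dusp8, Dusp10 and Dusp16). Dusp6, a phosphatase specific for ERK, was at 9.34, 10.30 and 8.56 in induced A, B and C, against 10.11, 10.90 and 9.57 in uninduced A, B and C. Each group ran B, A, C from high to low. The difference was -0.79 (SE 0.41, limma adjusted p = 0.213), and -0.38 as the mean of its 2 rows. Dusp5, another ERK phosphatase, was at 8.998, 9.92 and 8.60 in the induced arrays and at 8.83, 9.66 and 8.54 in the uninduced ones (difference 0.16, SE 0.34, limma adjusted p = 0.729).

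The ERK feedback genes had 0 of 8 past the test (limma; without adjustment, 2 lower at p under 0.05), with a median difference of -0.12 and 4 of 8 highest on both B arrays, or 1 of 8 after median centring. The median was -0.26 after median centring and -0.55 over the 4 genes left when the dimmer 50% of all genes were dropped. Spred2, an inhibitor of Ras signalling, was at 8.18, 8.28 and 7.97 in induced A, B and C, against 8.78, 9.42 and 8.80 in uninduced A, B and C (difference -0.86, SE 0.18, limma adjusted p = 0.0529). Its groups did not overlap, and leaving out dim genes took it past the threshold (limma adjusted p = 0.0383 and 0.0317). Spry2, a Sprouty inhibitor, was at 8.04, 8.15 and 7.83 in the induced arrays, against 8.04, 8.60 and 8.01 in the uninduced ones (difference -0.21, SE 0.18).

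Upstream of the members, the MAP kinases and cofactors of serum response factor were the one list with genes past the test: 2 of 17 measured fell and 0 rose. The share called lower over all genes was 1.05%. Without adjustment, 7 of the 17 were lower at p under 0.05, against 3743 of all 22180 genes. All 17 had a difference below 0, against 44.0% of all genes and 73.1% of the brighter 50% of genes, which held all 17. Their median was -0.36, and the 16 above the range of background on at least 3 arrays belong to the bright genes whose median was -0.31. Map2k1, the kinase MEK1 that activates ERK, was at 8.92, 8.26 and 8.31 in induced A, B and C, against 9.50, 9.68 and 9.46 in uninduced A, B and C. The groups did not overlap, and the difference was -1.05 (SE 0.18, limma adjusted p = 0.0205). Elk3, an ETS-family cofactor of serum response factor, was at 8.86, 8.45 and 8.44 in the induced arrays, against 9.31, 9.62 and 9.24 in the uninduced ones, a difference of -0.80 (SE 0.16, limma adjusted p = 0.0392). Both calls ended when any single array other than induced A was left out, at -1.09 to -0.93 for Map2k1 and -0.88 to -0.69 for Elk3, and when all rows were tested (limma adjusted p = 0.114 and 0.145). The call of Map2k1 also ended after median centring (limma adjusted p = 0.0564). That of Elk3 ended under all 3 other scalings, of which cyclic loess gave -0.51 (limma adjusted p = 0.0567). The call of Elk3 also ended with a variance trend and robust moderation in the fit (limma adjusted p = 0.0534). Of 17 alternatives, 9 kept the call of Map2k1 and 6 that of Elk3. The B arrays were the highest of both groups for 3 of these 17 genes.

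Among the bZIP partners of AP-1, such as the small Maf and CREB proteins, 0 of 17 measured passed the test (limma; without adjustment, 1 higher and 3 lower at p under 0.05), with a median difference of -0.20 and 4 of 17 highest on both B arrays. Nfe2l2, the oxidative stress factor Nrf2, was at 10.62, 9.78 and 10.33 in induced A, B and C, against 10.59, 10.71 and 10.56 in uninduced A, B and C (difference -0.38, SE 0.19, limma adjusted p = 0.213). Here induced B was the lowest of all arrays. Creb1 was at 9.61, 8.93 and 9.38 in the induced arrays, against 9.57, 9.69 and 9.64 in the uninduced ones (difference -0.32, SE 0.17).

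Genes known from other work as AP-1 targets had 0 of 19 past the test (limma; without adjustment, 3 higher and 4 lower at p under 0.05) and a median difference of 0.052. That median turned to -0.089 after median centring, to -0.016 without induced B and to -0.36 over the 9 genes left when the dimmer 50% of all genes were dropped. Of the genes with limma p under 0.05 without adjustment, the 3 higher were Mmp3, Mmp9 and Mmp12. These 3 were in the range of background on all 6 arrays, as was Mmp13 among the 4 lower. The B array of both groups was the highest for 8 of 19. Plaur, the urokinase receptor, picked after its values were seen, was at 8.87, 10.70 and 8.53 in induced A, B and C, against 9.38, 10.35 and 9.43 in uninduced A, B and C. The brightest of the list were Fth1, a ferritin subunit, with a difference of 0.12 (SE 0.16), and Vegfa, an angiogenic growth factor, with -0.79 (SE 0.20, limma adjusted p = 0.0838). Vegfa was at 10.04, 9.35 and 9.95 in the induced arrays, against 10.67, 10.28 and 10.76 in the uninduced ones, with B the lowest of each group.

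Genes of heat shock and of stress during handling, listed because immediate early genes also respond to it, had 0 of 10 past the test (limma). Without adjustment, 1 was higher and 1 was lower at limma p under 0.05. The 1 higher, Hspb1, was in the range of background on all 6 arrays. The median difference was -0.28. Of these 10, 2 were highest on both B arrays. The chaperone gene Hspa8 was at 12.78, 12.67 and 12.48 in induced A, B and C, against 12.59, 12.64 and 12.53 in uninduced A, B and C (difference 0.060, SE 0.13). The mitochondrial chaperone gene Hspd1 was at 10.40, 9.66 and 9.58 in the induced arrays, against 10.35, 10.62 and 10.11 in the uninduced ones (difference -0.48, SE 0.22, limma adjusted p = 0.180). The inducible Hspa1a and Hspa1b were in the range of background on all 6 arrays.

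**Figure D4:**
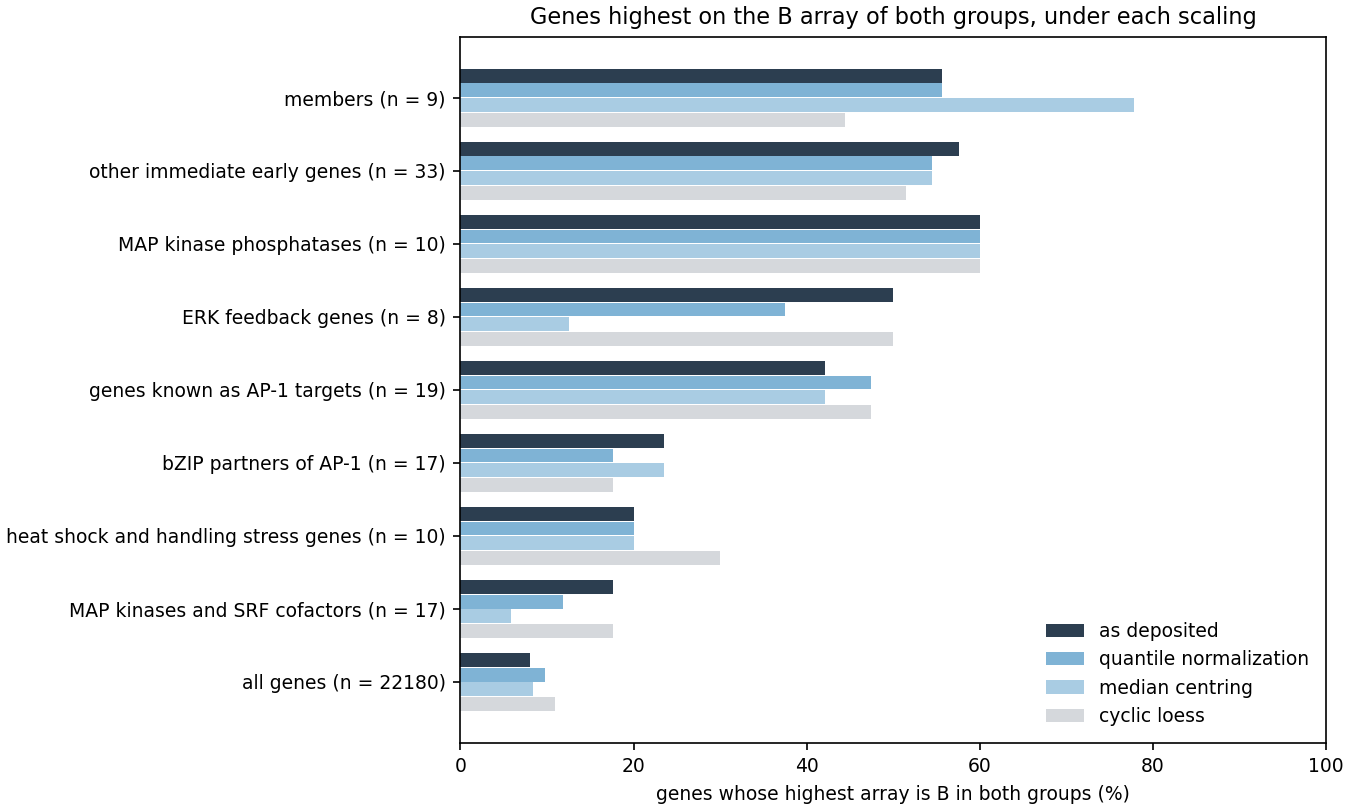
Share of genes whose highest array was B in both groups (x axis, percent), for the 9 measured members, for each gene list and for all 22180 genes; bars are the deposited values and 3 other scalings. As deposited, the members (55.6%), the other immediate early genes (57.6%) and the MAP kinase phosphatases (60.0%) stand far above all genes (8.01%). So do the ERK feedback genes (50%, but 12.5% after median centring) and the genes known as AP-1 targets (42.1%). The bZIP partners (23.5%), the MAP kinases and cofactors (17.6%) and the heat shock genes (2 of 10) lie nearer to all genes. Some genes counted here were in the range of background on all 6 arrays.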

How the data were processed

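Total RNA of 6 samples was hybridised to 6 arrays, and samples were grouped by title. The log2 expression values were deposited by the authors, 1 for each of 41345 rows per array. Per the submitters' processing notes, Partek and the build mm10 were used; for the version, background correction, normalization and summary method, the sources used here say nothing. The log2 scale was read from the values (2.86 to 14.03). Rows were named through GEO's platform annotation: 23521 carried 1 symbol, 1814 several and 16010 none, which left 22180 genes; 0 symbols needed updating.

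The fit of induced against uninduced arrays used lmFit and eBayes of limma 3.58.1 under R 4.3.3, with a two-sided test, no covariate and no filter, adjusted over all genes by Benjamini-Hochberg, and checked on simulated data. Of 124 listed gene names 114 were measured. The members, lists and alternatives were chosen with earlier results of these data known. Besides the members, the genes past the threshold in a list, or its 2 brightest, were named. Plk3, Egr1, Egr2, Plaur, Gadd45b, Btg2, Batf2, Hspb1, Mmp3, Mmp9, Mmp12, Mmp13 and the genes given in counts were named after their values were seen. The look at the B arrays was also taken after the values were seen. Promoter sequences are from RefSeq (GRCm38.p6). With 3 arrays per group, the number of arrays limits the precision.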

Additional observations from a re-analysis of the deposited data

How the results depend on the processing

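Of the 17 alternatives run for each member, none gave a call to Fosl2, Jun, Junb or Atf3. Calls appeared with array weights for Fos (-0.53), Jund (-0.33), Ier2 (-0.32) and Dusp1 (-0.84), 4 members lower in all, and without both B arrays for Fosb (-0.84), 1 member. With single arrays left out, 0 to 1 members were lower, and Dusp1 was between -0.86 and -0.36. Directions turned for Fosl2 (0.095 after quantile normalization, 0.18 after cyclic loess), Ier2 (0.038) and Jund (0.0091) after cyclic loess, and Jun (-0.089) and Junb (-0.028) after median centring. Leaving out 1 array moved Jun between -0.071 and 0.17 and Junb between -0.11 and 0.32. Genes outside the members that turned were Fth1 (-0.028 with array weights, -0.025 after median centring) and Hspa8 (-0.013 with array weights, -0.081 after median centring); leaving out 1 array gave Dusp5 between -0.21 and 0.49, Fth1 between -0.016 and 0.26, Hspa8 between -0.0096 and 0.14, and Plaur between -1.03 and 0.063. The cause was not tested.

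All genes called higher and lower in induced cells, 83 and 232 as given, were 43 and 55 at an adjusted p under 0.01, 36 and 44 over all rows, 46 and 153 after median centring, 5825 and 5681 with array weights, 49 and 77 without both B arrays, and 142 lower after cyclic loess. Leaving out 1 array gave 45 to 1998 higher and 47 to 3535 lower, the highest of both without induced A. With the letter as a replicate block they were 174 and 425, and no member was called (the lowest limma adjusted p was 0.0658, for Atf3). The letters were not taken to pair the samples. Over all rows, deviations from the group means correlated at -0.15 for A, -0.15 for B and 0.32 for C. The highest correlation was across letters, at 0.37 for induced A with uninduced B. With the block the SE was smaller for Fosb (0.209), Atf3 (0.177), Dusp1 (0.189), Junb (0.169) and Fos (0.175). It was larger for Fosl2 (0.176), Jun (0.169), Jund (0.174) and Ier2 (0.169). The block brought Dusp6 (limma adjusted p = 0.0197), Spred2 (0.0143) and Vegfa (0.0184) past the threshold. Signal over background limits Atf3 on induced C.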
